A study of Mus musculus with 28 samples.

Results

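Gene expression in Zic2 knockout (KO) embryonic stem cells was compared with that in wild-type (WT) cells while both were held in 2i. The comparison used 4 of the 28 RNA-seq libraries of the series, chosen by their labels alone: the polyA libraries of the Zic2 KO lines 1 and 2, and those of the WT lines Zic2_WT and Ehmt1_WT. The series follows mouse embryonic stem cells as they leave the naive state and asks how the zinc finger factors Zfp281 and Zic2 and the histone methyltransferase Ehmt1 act in that transition. 2i is a serum-free N2B27 medium with 3 µM CHIR99021, an inhibitor of the kinase Gsk3, and 1 µM PD0325901, an inhibitor of the kinase Mek.

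All of these cells were RGd2, a female mouse embryonic stem cell line that carries the reporter Rex1:GFPd2-IRES-Blasticidin, so the KO and the WT lines share it. Beside the Zic2 KO and WT lines in 2i (n = 2 each), the same lines taken 32 h after 2i was withdrawn are used below (n = 2 each). So are Ehmt1/Zic2 double KO and Ehmt1 KO cells in 2i (n = 2 lines each). Each library of a group comes from a line of its own, and the labels state neither how the lines were made nor whether they came from separate cultures. The p-values therefore measure the spread between the lines of a group, in which technical and clonal differences cannot be told apart. That spread is pooled over the 8 groups of all 16 polyA libraries. The 2i and 32 h libraries of a line are treated as independent in it.

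Zic2 belongs to a family of zinc finger transcription factors related to the Gli factors of the Hedgehog pathway, and is best known for its role in forebrain and neural development. In embryonic stem cells Zic2 is found at enhancers together with the chromatin remodeller NuRD, and Zic factors are linked to the passage from naive to primed pluripotency. Naive cells in 2i express factors such as Esrrb, Klf4 and Nanog, and leave that state through a formative phase marked by Otx2, Pou3f1, Fgf5 and the de novo DNA methyltransferases.

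The libraries were alike in depth, between 19310380 and 21655063 counts each. The pluripotent stem cell markers Pou5f1, Sox2, Nanog, Esrrb, Zfp42 and Sall4 summed to 3625 and 3727 CPM (counts scaled to the library size) in Zic2 KO lines 1 and 2, against 3720 and 4135 CPM in Zic2_WT and Ehmt1_WT. The 12 primitive endoderm markers summed to 48.0 and 42.6 CPM in the KO lines, against 44.2 and 44.4 CPM in Zic2_WT and Ehmt1_WT. The 10 trophoblast markers summed to 74.8 and 73.0 CPM in the KO lines, against 81.0 and 87.6 CPM in those WT lines, and the 11 fibroblast markers to 15.1 and 14.5 CPM against 16.9 and 15.2 CPM. All 4 libraries thus carried the stem cell markers and low sums of the other lists. Per chromosome, the median log2 difference of each KO line from the mean of the WT lines stayed between -0.05 and 0.03, so no chromosome stood apart in Zic2 KO cells.

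The WT lines differed from each other more than the KO lines did. Over 10646 genes, the standard deviation (SD) of the log2 difference between libraries was 0.19 between the KO lines and 0.34 between the WT lines. It was 0.32 and 0.37 between each KO line and Zic2_WT, and 0.40 and 0.41 between each KO line and Ehmt1_WT. The KO lines were thus about as far from the WT lines as those were from each other, and each effect is given below against each WT line as well as against their mean.

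The targeted gene itself did not separate the groups. Zic2 had 107 and 149 CPM in Zic2 KO lines 1 and 2, against 105 and 111 CPM in Zic2_WT and Ehmt1_WT, a log2 fold change of 0.25 ± 0.39 (standard error; adjusted p = 0.89). The labels do not say which part of Zic2 was altered, so this count does not check them, and Zic2 KO stands for the libraries labelled so. Zic5, the neighbour of Zic2 in the genome, had 20.4 and 26.1 CPM in the KO lines, against 16.6 and 9.89 CPM in Zic2_WT and Ehmt1_WT. It did not pass the test, with a log2 fold change of 0.81 ± 0.43 (adjusted p = 0.591). Zic1 stayed below 1 CPM in all 4 libraries, and Zic4 did not pass the filter on low counts.

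The effect of Zic2 loss in 2i was small. Of 15667 genes tested, 25 rose and 18 fell in Zic2 KO cells against the mean of the WT lines. They included lower Otx2, a homeobox factor that drives cells into the formative state, and lower Dnmt3l, a cofactor without catalytic activity that stimulates the de novo DNA methyltransferases. They also included higher Dazl and Sohlh2, regulators of germ cells, and higher Cdh3, the adhesion molecule P-cadherin. Naive and general pluripotency genes gave no call.

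The 43 called genes were 0.274% of the genes tested, 0.16% as higher and 0.115% as lower genes, at an adjusted p under 0.05 by edgeR's quasi-likelihood test with Benjamini-Hochberg adjustment. The same method is meant wherever an adjusted p is given without a tool, and the value after ± is the standard error of the log2 fold change. Their adjusted p lay between 0.0143 and 0.0485, close under the threshold. For comparison, 4214 genes (26.9%) were called in Ehmt1 KO against the same WT lines. Of the 43 genes, 27 (62.8%) were called there too. Of the 25 higher genes, 18 were higher there and 2 lower, and of the 18 lower genes, 4 were lower there and 3 higher. Both comparisons use the same WT libraries, so this overlap is no independent support for the 43 calls. The count rests on every library: it was 0 without either KO line, 0 without Ehmt1_WT and 214 without Zic2_WT.

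Otx2 had 4.71 and 5.95 CPM in Zic2 KO lines 1 and 2, against 12.9 and 15.9 CPM in Zic2_WT and Ehmt1_WT. Both KO lines lay below both WT lines. The log2 fold change was -1.43 ± 0.18 (adjusted p = 0.0143), from -1.27 ± 0.20 against Zic2_WT and -1.57 ± 0.20 against Ehmt1_WT. Dnmt3l had 89.8 and 77.6 CPM in the KO lines, against 273 and 259 CPM in Zic2_WT and Ehmt1_WT. Its level was low in both KO lines and nearly the same in both WT lines. Its log2 fold change was -1.67 ± 0.24 (adjusted p = 0.016), with -1.70 ± 0.29 against Zic2_WT and -1.63 ± 0.29 against Ehmt1_WT.

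Sohlh2, a basic helix-loop-helix factor needed for spermatogonia and oocytes to develop, had 46.1 and 57.5 CPM in the KO lines, against 18.2 and 17.97 CPM in Zic2_WT and Ehmt1_WT. Dazl, an RNA-binding protein that controls translation in germ cells, had 26.1 and 30.9 CPM in the KO lines, against 11.4 and 6.51 CPM in Zic2_WT and Ehmt1_WT. Both genes were higher in each KO line than in each WT line. Sohlh2 rose by 1.52 ± 0.20 on the log2 scale (adjusted p = 0.0143), with 1.51 against Zic2_WT and 1.53 against Ehmt1_WT. Dazl rose by 1.67 ± 0.25 (adjusted p = 0.0162), with 1.32 against Zic2_WT and 2.13 against Ehmt1_WT. The effect on Sohlh2 was thus alike against both WT lines, while that on Dazl was larger against Ehmt1_WT.

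The promoters of these 3 genes, taken from RefSeq (GRCm38.p6, 250 bases before to 50 after the start), are shown because Dnmt3l acts in the methylation of CG dinucleotides, which are in capitals. DNA methylation itself was not measured in these libraries.

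Otx2, chr14:48667595-48667894, minus strand: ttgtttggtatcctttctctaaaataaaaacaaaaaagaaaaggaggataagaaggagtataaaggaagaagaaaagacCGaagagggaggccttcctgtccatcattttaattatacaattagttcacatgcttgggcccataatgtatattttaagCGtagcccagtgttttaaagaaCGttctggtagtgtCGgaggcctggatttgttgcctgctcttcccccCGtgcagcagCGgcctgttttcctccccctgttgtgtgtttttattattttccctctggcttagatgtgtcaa
Dazl, chr17:50293571-50293870, minus strand: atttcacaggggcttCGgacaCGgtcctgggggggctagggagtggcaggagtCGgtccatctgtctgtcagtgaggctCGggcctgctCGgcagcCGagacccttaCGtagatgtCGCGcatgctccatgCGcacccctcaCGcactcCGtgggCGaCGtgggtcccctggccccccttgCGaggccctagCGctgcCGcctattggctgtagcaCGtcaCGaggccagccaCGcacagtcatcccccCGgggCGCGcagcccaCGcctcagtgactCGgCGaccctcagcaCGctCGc
Sohlh2, chr3:55181794-55182093, plus strand: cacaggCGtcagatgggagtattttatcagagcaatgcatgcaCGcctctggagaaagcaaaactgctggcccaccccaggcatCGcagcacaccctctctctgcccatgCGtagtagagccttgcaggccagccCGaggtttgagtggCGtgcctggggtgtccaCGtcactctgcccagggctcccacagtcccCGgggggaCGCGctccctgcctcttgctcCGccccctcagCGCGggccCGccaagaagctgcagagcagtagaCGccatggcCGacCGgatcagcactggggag

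The window holds 28 CG dinucleotides in Dazl, 17 in Sohlh2 and 6 in Otx2, against a median of 20 over the 12234 tested genes with a promoter in the RefSeq table and of 12 over the 31 called genes with one. The motif CAGCAGG, to which Zic factors are known to bind, was searched on both strands, as CAGCAGG or CCTGCTG. It was found in 2 of the 31 called promoters (6.45%) and in 1324 of all 12234 (10.8%), and in none of the 3 windows above. The called promoters that hold it are those of Chrm3, which lies outside the naming rule, and Crxos, and that of Crxos is shown with the match in capitals.

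Crxos, chr7:15882367-15882666, plus strand: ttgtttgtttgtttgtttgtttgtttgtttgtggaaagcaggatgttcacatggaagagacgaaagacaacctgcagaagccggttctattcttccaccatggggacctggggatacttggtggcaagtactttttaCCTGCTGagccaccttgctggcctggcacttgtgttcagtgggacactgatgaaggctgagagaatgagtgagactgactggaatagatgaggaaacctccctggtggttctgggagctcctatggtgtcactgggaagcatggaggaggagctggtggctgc

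A match in these letters is a description of the window and not a site, and a window without one says nothing of binding elsewhere.

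Of the other genes that rose, Cdh3 had 69.5 and 62.5 CPM in the KO lines, against 26.5 and 28.6 CPM in Zic2_WT and Ehmt1_WT. It rose by 1.26 ± 0.17 on the log2 scale (adjusted p = 0.0143), with 1.31 against Zic2_WT and 1.21 against Ehmt1_WT. Crxos, a homeobox gene of the early embryo that lies opposite Crx, had 16.6 and 19.7 CPM in the KO lines, against 2.60 and 4.33 CPM in Zic2_WT and Ehmt1_WT. With 2.39 ± 0.39 it had the largest log2 fold change of the 15 higher genes named by rule. Il34, a ligand of the Csf1 receptor, had 14.5 and 15.1 CPM in the KO lines, against 5.41 and 2.71 CPM in the same WT lines. Its log2 fold change was 1.45 against Zic2_WT and 2.45 against Ehmt1_WT, and the WT lines differed from each other. Scn2b, a beta subunit of voltage-gated sodium channels, had 13.2 and 17.4 CPM in the KO lines, against 5.11 and 3.80 CPM, and Fkbp6, a protein of the germline piRNA pathway, had 13.5 and 10.7 CPM against 4.26 and 3.23 CPM.

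Further higher genes had log2 fold changes of 1.72 or less. Slc38a4, an amino acid transporter and imprinted gene, had 72.6 and 104 CPM in the KO lines, against 49.1 and 37.2 CPM in Zic2_WT and Ehmt1_WT (log2 fold change 1.03 ± 0.18, adjusted p = 0.0401). Acot11, an acyl-CoA thioesterase, had 14.0 and 14.7 CPM in the KO lines, against 7.46 and 6.51 CPM. Cyp2c70, which hydroxylates bile acids in mouse liver, had 4.81 and 5.30 CPM in the KO lines, against 1.10 and 1.95 CPM, a log2 fold change of 1.72. Mtss2, which binds actin and membranes, had the smallest effect of those that rose, with 83.1 and 87.7 CPM in the KO lines against 53.3 and 56.6 CPM (0.64 ± 0.11, adjusted p = 0.0299). The remaining higher genes named by rule were Sh3d19, Tmem229b, Greb1l and Auts2, a component of a Polycomb complex, with log2 fold changes between 0.73 and 1.42.

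Of the 18 genes that fell, 15 are named by rule, Otx2 and Dnmt3l among them. Pkd1l2, a polycystin family member, had 1.10 and 0.837 CPM in the KO lines, against 9.22 and 9.32 CPM in Zic2_WT and Ehmt1_WT. Its log2 fold change of -3.26 ± 0.49 (adjusted p = 0.016) was the largest among the genes that fell and was alike against both WT lines, at -3.25 and -3.27. Rsph4a, a radial spoke protein of motile cilia, had 3.82 and 2.19 CPM in the KO lines, against 17.9 and 14.4 CPM. Naaa, a lysosomal hydrolase of N-acylethanolamines, had 6.12 and 7.35 CPM in the KO lines, against 24.9 and 29.8 CPM. All 3 fell by at least 2.02 on the log2 scale. Lgals3, the sugar-binding galectin-3, had 15.01 and 15.2 CPM in the KO lines, against 44.0 and 40.8 CPM (-1.49 ± 0.22), and Gja1, the gap junction protein connexin 43, had 41.6 and 27.3 CPM against 76.6 and 98.2 CPM (-1.35 ± 0.25).

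Myb, a transcription factor of blood progenitors, had 13.7 and 11.5 CPM in the KO lines, against 26.9 and 23.8 CPM in Zic2_WT and Ehmt1_WT (-1.01 ± 0.16, adjusted p = 0.0268). Ppp1r1a, an inhibitor of protein phosphatase 1, had 2.72 and 3.77 CPM in the KO lines, against 8.61 and 10.8 CPM, and Dysf, the membrane repair protein dysferlin, had 1.88 and 1.72 CPM against 5.26 and 4.94 CPM. All of these were lower in each KO line than in each WT line. Stmn1, the microtubule-destabilizing stathmin, had 164 and 168 CPM in the KO lines, against 249 and 286 CPM. It fell in both KO lines, but by less, at -0.69 ± 0.11 (adjusted p = 0.022). The others were Adamts9, a secreted metalloprotease, Icosl, a ligand of the T cell receptor ICOS, Fah, the last enzyme of tyrosine breakdown, and Dusp27, between -1.42 and -0.58.

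**Figure D1:**
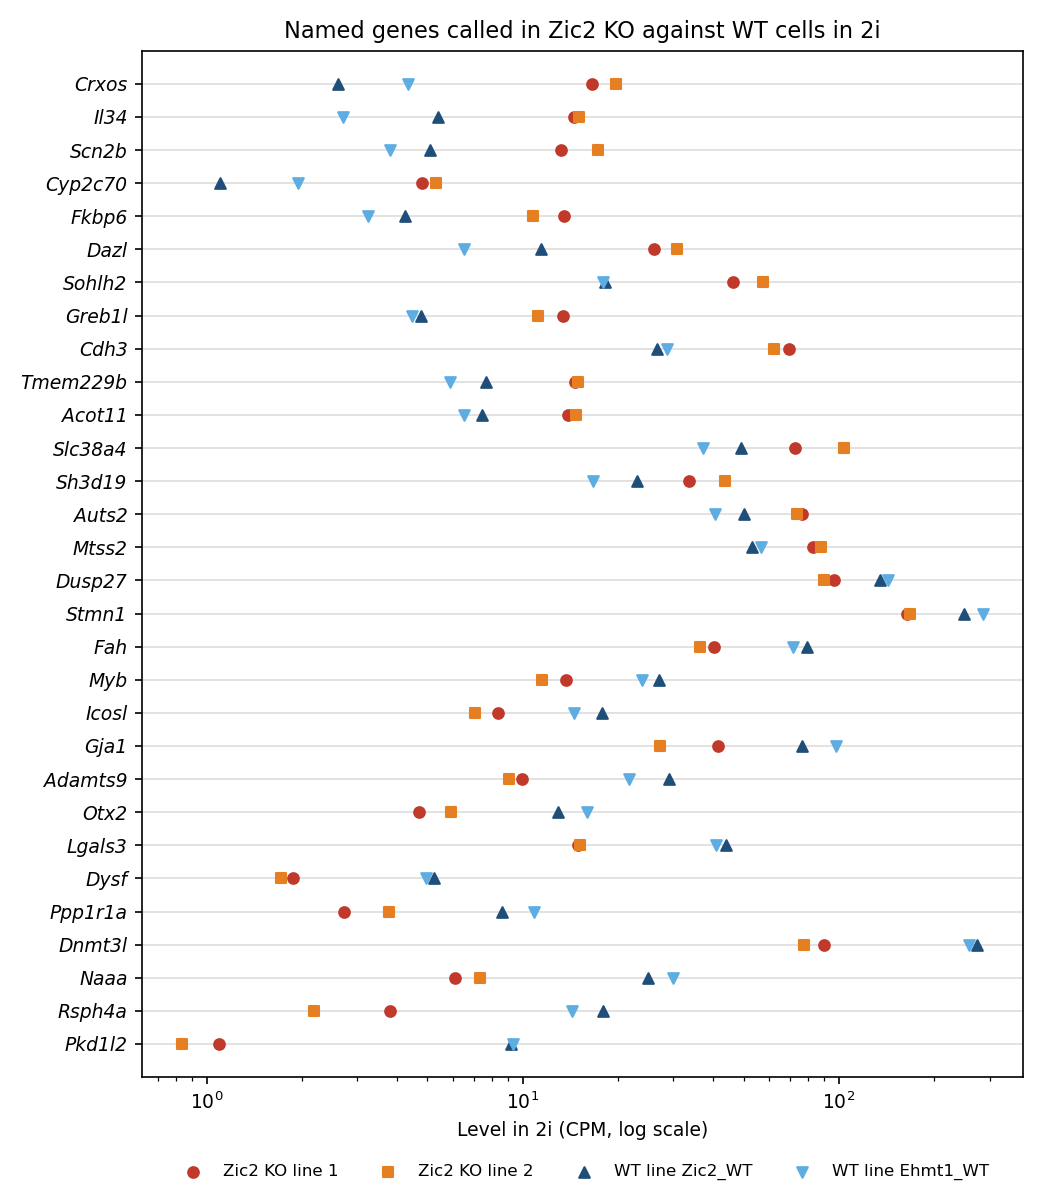
Levels in CPM (log scale) of the 30 called genes named by rule, 1 row per gene and 1 symbol per library, with the Zic2 KO lines 1 and 2 and the WT lines Zic2_WT and Ehmt1_WT. In each row both KO symbols lie to the same side of both WT symbols, and the gap is widest for Pkd1l2, at 1.10 and 0.837 CPM in the KO lines against 9.22 and 9.32 CPM in the WT lines.

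The 13 other called genes are not named by that rule. Of these, 10 stayed below 5 CPM in both groups and 4 are predicted or multi-copy, with some of them in both classes. Pramel17, Pramel19, Pramel31 and Gm5662 were the multi-copy or predicted genes, whose reads can be split between copies in counting. Of the rest, Gcsh, a part of the glycine cleavage system, had 193 and 208 CPM in the KO lines, against 267 and 316 CPM in Zic2_WT and Ehmt1_WT, a log2 fold change of -0.54 ± 0.09.

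Called genes lay close to each other in 5 pairs with a gap under 200 kb, and the members of each pair moved in the same direction. How often this holds for close genes over all genes was not tested. On chromosome 10, Icosl (chr10:78069368-78079525) starts 5.7 kb after Dnmt3l (chr10:78042287-78063622), and both fell. On chromosome 8, Il34 (chr8:110741829-110805949) lies 0.4 kb from Mtss2 (chr8:110721108-110741401), and both rose. Pkd1l2 (chr8:116995679-117082449) lies 2.2 kb from Gcsh (chr8:116981967-116993498), and both fell. The remaining pairs were Tmem229b with Arg2, a mitochondrial arginase outside the naming rule, and Pramel17 with Pramel19. The first pair lies 123.2 kb apart with 2 other tested genes between, and the second 96.4 kb apart. The strand setting of the counting is not given, so reads that run from a gene into its close neighbour cannot be told apart from the neighbour's own. The 6 called genes of chromosome 8 span 10.6 Mb. These genes themselves set the bounds of that stretch, so that it holds all 6 was fixed by its choice. It holds 82 of the 841 tested genes of the chromosome, with a median log2 fold change of 0.03. Over all genes tested, 0.274% were called.

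Against each WT line alone, the number of calls differed widely. Against Zic2_WT, 0 genes (0%) passed by edgeR, 1019 (6.5%) had an unadjusted p under 0.05, and DESeq2 called 91. Against Ehmt1_WT, 134 genes (0.855%) passed by edgeR, 98 higher (0.626%) and 36 lower (0.23%), and DESeq2 called 836. The lone WT library is assumed in these tests to vary like the replicated groups. Against Ehmt1_WT 8 and 11 genes were called when KO line 2 or KO line 1 was left out.

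With 0 calls against Zic2_WT, 0 genes were called against both WT lines by edgeR, while DESeq2 called 60, of which 36 were higher and 24 lower. Of these 60, 35 were among the 43 genes called against the mean, 17 higher and 18 lower, so all 18 lower genes were called by DESeq2 against each WT line. At an unadjusted p under 0.05 in each test by edgeR, 469 genes (2.99%) had the same sign against both lines, 231 higher (1.47%) and 238 lower (1.52%). All 43 genes are among them, but they were chosen from the mean of both lines and so give no independent support. Of the 43, 24 passed the adjusted threshold against Ehmt1_WT, and their adjusted p against Zic2_WT lay between 0.128 and 0.346. By median, the 25 higher genes had a median log2 fold change of 1.58 against Zic2_WT and 1.87 against Ehmt1_WT, and the 18 lower genes of -1.47 and -1.48. Over all genes tested these medians were 0.00 and -0.03.

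All 43 called genes had no overlap between KO and WT libraries, and the same was true of 42.4% of all genes tested. The same sign against both WT lines was seen in 9503 of all genes (60.7%).

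**Figure D2:**
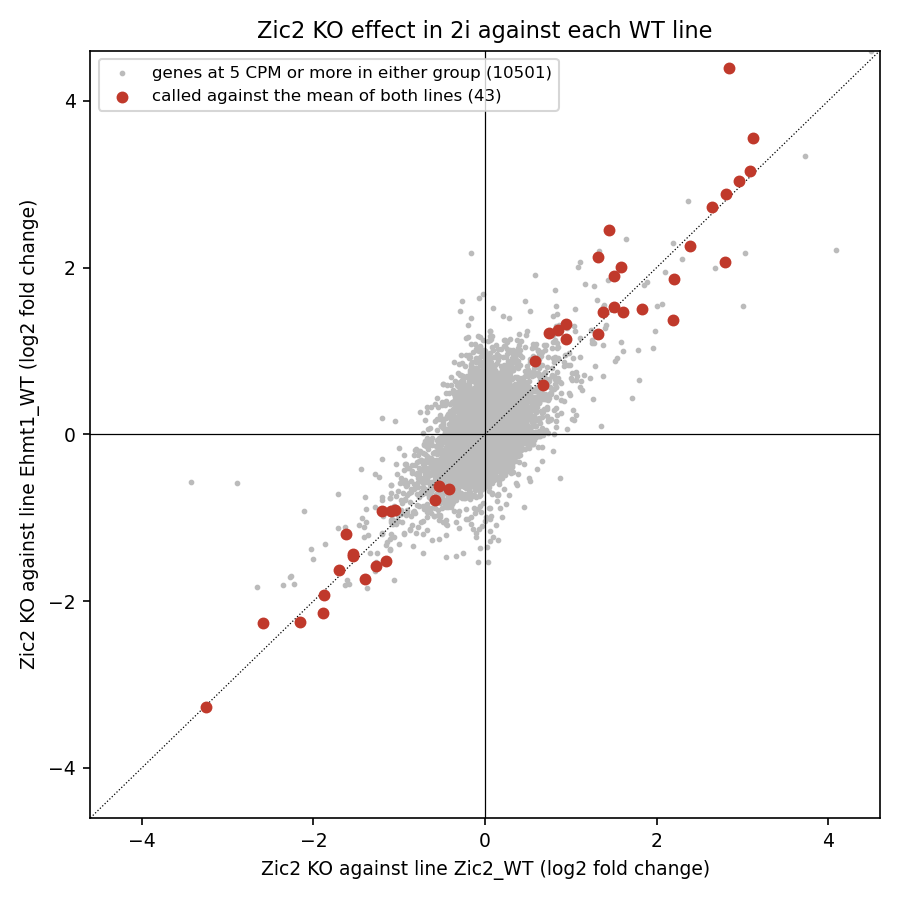
Log2 fold change of Zic2 KO against the line Zic2_WT (x axis) and against the line Ehmt1_WT (y axis), with 1 point per gene at 5 CPM or more in either group, 10501 in grey, and the 43 called genes in red whatever their level. The red points share a sign on both axes, and some lie off the dotted line of equal effects, such as Il34 at 1.45 and 2.45, and the 1 gene beyond the axes is drawn at their edge.

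No naive or general pluripotency gene passed the test. Over all genes, 9.86% had an unadjusted p under 0.05, 4.67% as higher and 5.2% as lower genes. DESeq2 called 281 of the 15667 genes tested, to be set beside its calls in each list below. Of the 20 tested naive genes 0 were called by edgeR, 2 had an unadjusted p under 0.05, and DESeq2 called Klf4, and the median log2 fold change was 0.02, beside -0.01 over all genes. Esrrb had 760 and 753 CPM in the KO lines, against 757 and 788 CPM in Zic2_WT and Ehmt1_WT, and Nanog had 695 and 775 CPM against 659 and 641 CPM. Klf4, another naive factor, had 15.2 and 17.8 CPM in the KO lines, against 25.99 and 27.9 CPM (-0.71 ± 0.17, adjusted p = 0.0961). Both KO lines lay below both WT lines for Klf4, but the difference did not pass. Dppa3, a maternal factor and naive marker, had 13.3 and 15.8 CPM in the KO lines, against 0.851 and 3.14 CPM, a difference that did not pass either (adjusted p = 0.433) and was called where the 4 libraries alone were fitted.

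Of the 16 general pluripotency genes 0 were called by edgeR, 6 had an unadjusted p under 0.05, and DESeq2 called Lin28a and Tdgf1; their median was -0.18. Pou5f1, which encodes Oct4, had 1427 and 1338 CPM in the KO lines, against 1490 and 1888 CPM in Zic2_WT and Ehmt1_WT. Tdgf1, the Nodal coreceptor Cripto, had 116 and 127 CPM in the KO lines, against 247 and 251 CPM (-1.03 ± 0.28, adjusted p = 0.152). Lin28a, an RNA-binding inhibitor of let-7 processing, had 343 and 279 CPM in the KO lines, against 466 and 453 CPM (-0.56 ± 0.13, adjusted p = 0.0797). Tdgf1 and Lin28a were lower as values in both KO lines than in both WT lines.

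Among the 18 formative genes Otx2 fell and 0 rose. At an unadjusted p under 0.05, 4 members were lower and 2 higher, and DESeq2 called Otx2 alone. Fgf5 had 0.575 and 0.512 CPM in the KO lines, against 1.95 and 1.76 CPM in Zic2_WT and Ehmt1_WT, and Car4 had 0.157 and 0.140 CPM against 1.10 and 0.951 CPM. Neither passed the test with all 16 libraries, and both were called when the 4 libraries alone were fitted. Pou3f1 was at 0.575 and 0.651 CPM in the KO lines, against 1.35 and 1.05 CPM in Zic2_WT and Ehmt1_WT. Other members were higher as values and not called. Sall2 had 26.8 and 24.6 CPM in the KO lines, against 18.9 and 17.3 CPM in the same WT lines. Lef1 had 59.4 and 57.5 CPM in the KO lines, against 45.0 and 43.1 CPM. The list's median was -0.24, with 10 members lower and 4 higher in both KO lines than in both WT lines, beside 22.3% and 20.1% of all genes. Of the 11 DNA methylation genes only Dnmt3l was called: Dnmt3a had 281 and 285 CPM in the KO lines, against 249 and 232 CPM in Zic2_WT and Ehmt1_WT, and Dnmt3b had 165 and 134 CPM against 184 and 197 CPM.

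Hedgehog and Gli pathway genes gave 0 calls of 16 by edgeR, with 3 at an unadjusted p under 0.05 and 1 by DESeq2, and the median was 0.22. Gli1, the target that reads out the pathway, had 9.10 and 9.21 CPM in the KO lines, against 14.0 and 10.7 CPM in Zic2_WT and Ehmt1_WT (-0.43 ± 0.21, adjusted p = 0.549). It did not pass the test. Of the 14 genes of NuRD, the remodeller that Zic2 is found with, 0 were called by edgeR, 2 had an unadjusted p under 0.05, and DESeq2 called Hdac2. This histone deacetylase had 238 and 257 CPM in the KO lines, against 172 and 171 CPM in Zic2_WT and Ehmt1_WT (0.53 ± 0.12, adjusted p = 0.0833).

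In the germline list, 2 of 23 tested members rose, Sohlh2 and Dazl, and 0 fell. A further 5 had an unadjusted p under 0.05 and were higher as values, among them Dmrt1, a factor of germ and Sertoli cells, with 45.8 and 52.8 CPM in the KO lines, against 16.4 and 22.9 CPM in Zic2_WT and Ehmt1_WT (1.33 ± 0.44, adjusted p = 0.275). The list's median log2 fold change was 0.56. Sycp3, a component of the meiotic synaptonemal complex, had 12.2 and 12.1 CPM in the KO lines, against 11.3 and 11.6 CPM (0.09 ± 0.26). DESeq2 called Sohlh2, Dazl and Rpl10l. Fkbp6, which rose, is not on the list.

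**Figure D3:**
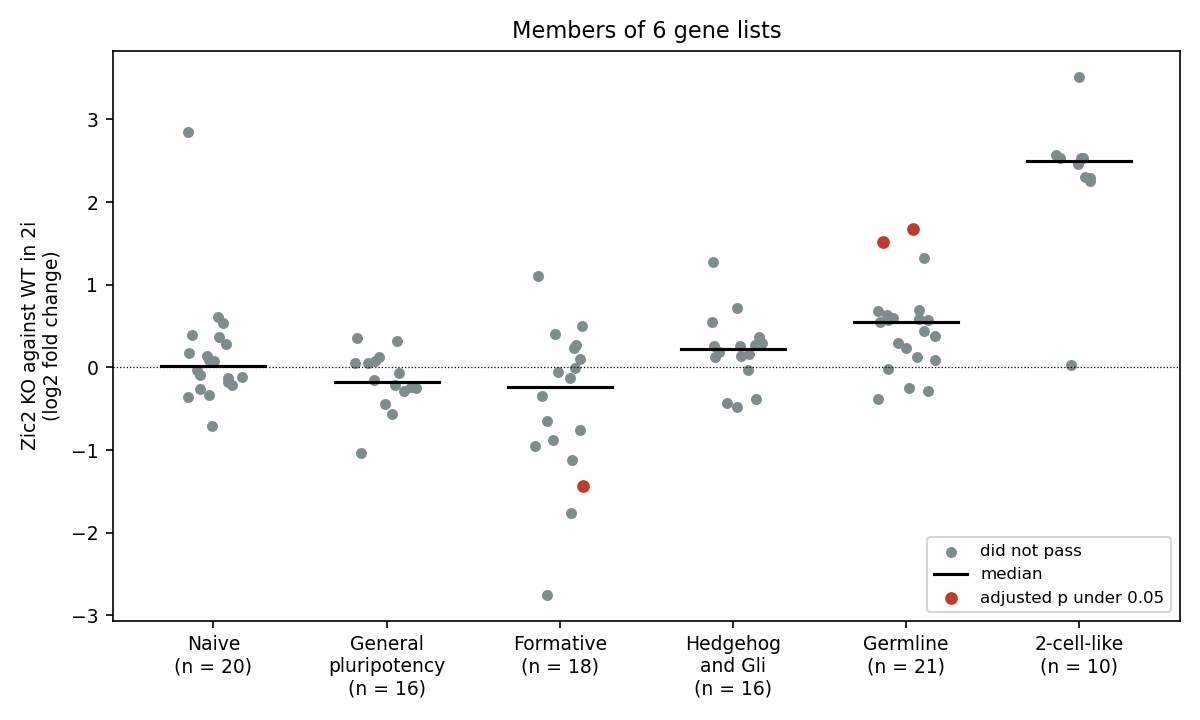
Log2 fold change of Zic2 KO against the mean of the WT lines in 2i (y axis) for members of 6 gene lists that passed the filter and had over 3 counts in a library of the comparison, 1 point per gene, with the median as a line. Called genes are red: Otx2 among the formative and Sohlh2 and Dazl among the germline genes, and the 2-cell-like points other than Eif1a lie above 2.

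Genes of the 2-cell-like state, which a small share of embryonic stem cells enters in culture and which are normally on at the 2-cell stage of the embryo, were higher as values in both KO lines. Zscan4a had 5.18 and 5.54 CPM in the KO lines, against 0.401 and 0.523 CPM in Zic2_WT and Ehmt1_WT. Zscan4d had 4.18 and 3.91 CPM in the KO lines, against 0.501 and 0.951 CPM, and Tmem92 had 7.22 and 7.63 CPM against 1.15 and 1.85 CPM. Without Eif1a, the 10 other tested members summed to 42.3 and 39.4 CPM in the KO lines, against 5.86 and 7.94 CPM in Zic2_WT and Ehmt1_WT. All 10 had higher values in each KO line than in each WT line and an unadjusted p under 0.05, beside 20.1% and 4.67% of all genes in that direction.

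By edgeR 0 of the 11 tested members were called, the smallest adjusted p being 0.0537. DESeq2 called 8 of them, beside 281 of the 15667 genes tested. With the 4 compared libraries alone edgeR called 8 members, beside 207 genes in all. Without the filter on low counts it called 3 members, beside 94 genes in all. The counts of these multi-copy genes are uncertain, and in bulk RNA more cells in this state and more RNA per cell cannot be told apart. Zfp352 had 2.56 and 1.72 CPM in the KO lines, against 0.250 and 0.475 CPM. Sp110 had 3 counts in each KO library and 0 counts in each WT library, too few for a fold change. It is still among the 10 members counted above and in the median below. In the double KO against Ehmt1 KO contrast, which shares no library with the one above, the median log2 fold change of the same 10 genes was 0.47.

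**Figure D4:**
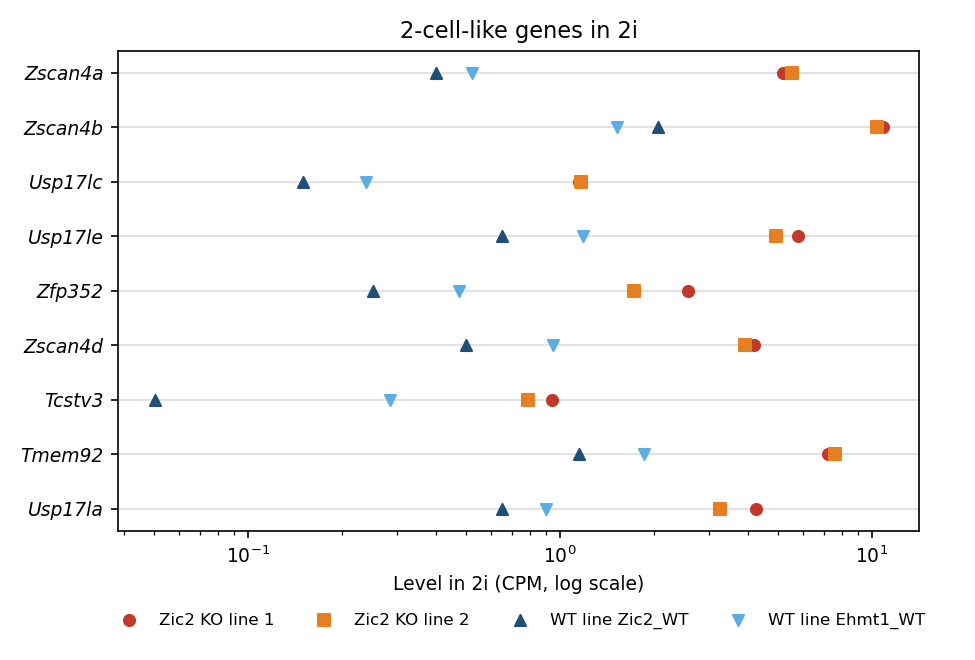
Levels in CPM (log scale) of 9 2-cell-like genes in 2i, 1 row per gene and 1 symbol per library, without Eif1a, which hardly differed, and Sp110, which had too few counts. The Zic2 KO lines lie to the right of both WT lines in each row, for Zscan4a at 5.18 and 5.54 CPM against 0.401 and 0.523 CPM.

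Over all 30 gene lists, 397 genes passed the filter and 5 of them were called. These were Otx2, Dnmt3l, Sohlh2, Dazl and Cdh3, and 26 lists had no called member. Some lists shifted as values without a call. The lowest median of a list with no called member was -0.58, in the 13 tested neural genes. It was -0.67 against Zic2_WT and -0.26 against Ehmt1_WT. At an unadjusted p under 0.05, 3 neural genes were lower and 0 higher, and DESeq2 called 1 as lower. The 20 glycolysis and hypoxia genes, with 0 calls by edgeR, had a median of -0.37, with 8 lower and 1 higher at an unadjusted p under 0.05. DESeq2 called 6 of them as lower, beside 132 of the 15667 genes tested. Pfkl, a phosphofructokinase subunit, had 125 and 170 CPM in the KO lines, against 222 and 256 CPM in Zic2_WT and Ehmt1_WT (-0.69 ± 0.14, adjusted p = 0.0554). Slc38a4, which rose, is not on the imprinted list, whose 29 tested genes had a median of -0.34. These 29 gave 0 calls by edgeR, 10 at an unadjusted p under 0.05 and 3 by DESeq2. Of these, Phlda2 had 0.994 and 1.16 CPM in the KO lines and 1.62 CPM in Ehmt1_WT, but 11.7 CPM in Zic2_WT, so its effect rested on which WT line was used. Ascl2, also called by DESeq2, was lower in both KO lines than in both WT lines. It had 0.157 and 0.0930 CPM (3 and 2 counts) in the KO lines, against 1.10 and 1.52 CPM in Zic2_WT and Ehmt1_WT. The 22 ribosomal protein genes had a median of 0.03 against Zic2_WT and -0.31 against Ehmt1_WT, and the 17 oxidative phosphorylation genes 0.04 and -0.24.

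At 32 h after 2i withdrawal, other libraries of the same lines gave 12 called genes (0.0766%), 7 higher (0.0447%) and 5 lower (0.0319%) in Zic2 KO than in WT cells. Of the 43 genes called in 2i, 4 were called at 32 h too: Sohlh2, Tmem229b, Dysf and Arntl2, the last of them outside the naming rule. At 32 h 36 of the 43 had the same sign as in 2i, beside 58.4% of all genes, and 41 had a smaller absolute log2 fold change than in 2i, the measure by which they had been chosen. Sohlh2 kept its size, with 74.7 and 87.4 CPM in Zic2 KO lines 1 and 2, against 29.9 and 25.0 CPM in Zic2_WT and Ehmt1_WT (1.56 ± 0.20, adjusted p = 0.0123). Dysf had 4.42 and 4.59 CPM in the KO lines at 32 h, against 10.6 and 12.1 CPM (-1.33 ± 0.21, adjusted p = 0.0319).

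Otx2 was far higher at 32 h in all lines, with 70.6 and 72.9 CPM in the KO lines, against 85.8 and 109 CPM in Zic2_WT and Ehmt1_WT. Its difference there was -0.44 ± 0.15 on the log2 scale and did not pass (adjusted p = 0.344). Dnmt3l had 373 and 386 CPM in the KO lines, against 431 and 386 CPM, a difference of -0.11 ± 0.23. Dazl had 13.6 and 12.6 CPM in the KO lines, against 11.8 and 9.08 CPM. All 3 genes were called in 2i, and none of them passed at 32 h.

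The test of that change itself, the interaction of genotype with stage, called 0 genes by edgeR, with 725 (4.63%) at an unadjusted p under 0.05 and 24 called by DESeq2. Among the 43 genes, 27 had an unadjusted p under 0.05, none of them with an adjusted p under 0.05. They included Otx2 (interaction 0.99 ± 0.24, adjusted p = 0.575) and Dnmt3l (1.56 ± 0.33, adjusted p = 0.461). The 43 were chosen by their 2i values, which enter the interaction.

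On the Ehmt1 KO background, double KO cells were set against Ehmt1 KO cells in 2i, with no library shared with the comparison above. There 15 genes were called (0.0957%), 7 higher (0.0447%) and 8 lower (0.0511%) in double KO cells. Of these, 5 were called on both backgrounds, which is 33.3% of the 15 and 11.6% of the 43: Otx2, Myb, Dpysl4, Cdh3 and Acot11. All 5 kept their direction. Otx2 had 7.29 and 8.76 CPM in double KO lines 1 and 2, against 20.0005 and 22.1 CPM in Ehmt1 KO lines 1 and 2 (-1.39 ± 0.17, adjusted p = 0.00892), beside -1.43 in Zic2 KO against WT cells. Myb had 6.79 and 8.90 CPM in the double KO lines, against 16.7 and 19.7 CPM in the Ehmt1 KO lines (-1.21 ± 0.17). The levels of Otx2 and Myb did not overlap between the groups on either background.

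Cdh3 had 72.2 and 51.1 CPM in the double KO lines, against 21.3 and 24.3 CPM in the Ehmt1 KO lines (1.43 ± 0.17, adjusted p = 0.00892). Acot11 had 7.38 and 8.08 CPM in the double KO lines, against 2.84 and 2.22 CPM (1.60 ± 0.20). Its log2 fold change was 1.60 on the Ehmt1 KO background and 1.04 in Zic2 KO against WT cells, a difference of 0.57 ± 0.27 that did not pass (adjusted p = 0.903). Dpysl4, a relative of dihydropyrimidinase from the collapsin response mediator family, fell below the naming rule's 5 CPM and is named as 1 of the 5. It had 0.917 and 1.46 CPM in the double KO lines, against 3.62 and 5.22 CPM (-1.89 ± 0.30, adjusted p = 0.0471).

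**Figure D5:**
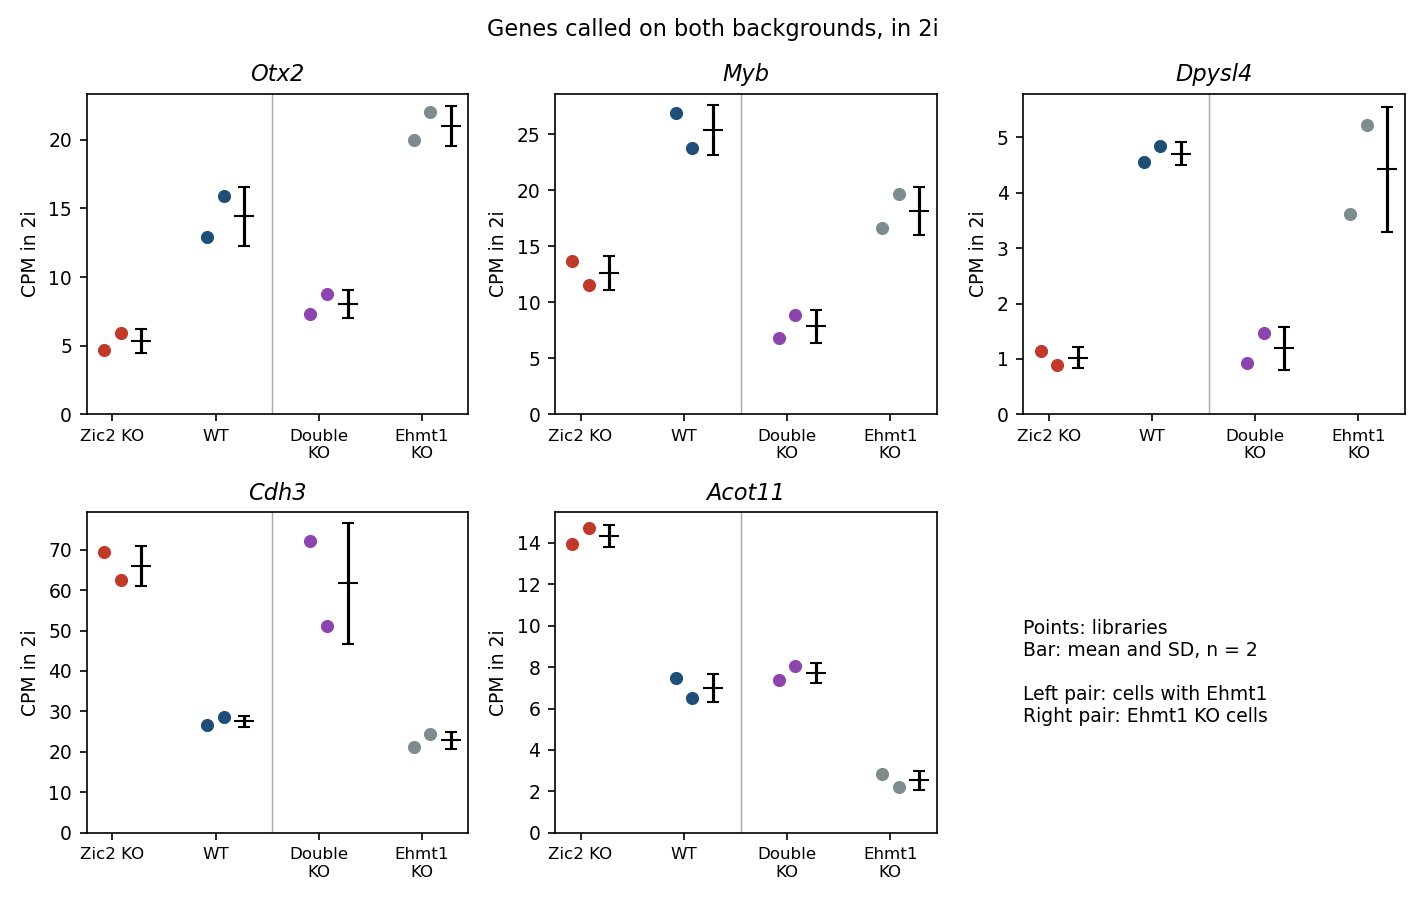
CPM in 2i of the 5 genes called on both backgrounds, with 1 point per library and the mean with its SD (n = 2) beside them, in the order Zic2 KO, WT, double KO and Ehmt1 KO. Otx2, Myb and Dpysl4 were lower and Cdh3 and Acot11 higher without Zic2 in both pairs, for Otx2 at 4.71 and 5.95 CPM against 12.9 and 15.9 CPM in the left pair.

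Of the 43 genes, 37 had the same sign on the Ehmt1 KO background, 21 of the 25 higher and 16 of the 18 lower genes, beside 61.7% of all genes tested. Their median log2 fold change there was 0.31 for the higher and -0.65 for the lower genes, which had been chosen by their size in Zic2 KO against WT cells. Naaa, with 6.01 and 9.24 CPM in the double KO lines against 22.02 and 31.9 CPM in the Ehmt1 KO lines, and Rsph4a, with 2.20 and 5.79 CPM against 14.1 and 19.996 CPM, did not pass there (adjusted p = 0.0977 and 0.0638). Sohlh2 had 43.1 and 56.9 CPM in the double KO lines, against 50.8 and 45.6 CPM, a log2 fold change of 0.05 ± 0.20. Its level in both of these groups was close to the 46.1 and 57.5 CPM of Zic2 KO cells and above that of WT cells. Dnmt3l had 107 CPM in double KO line 1 but 229 CPM in line 2, against 218 and 219 CPM in the Ehmt1 KO lines.

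The count of 15 rests on single lines. It was 0 without Ehmt1 KO line 2, 1 without double KO line 1, 51 without Ehmt1 KO line 1 and 287 without double KO line 2. On chromosomes 11 and 16 the median gene stood 0.34 and 0.43 log2 units above WT in double KO line 2, and on chromosome 11 by 0.33 in double KO line 1 and 0.39 in Ehmt1 KO line 1, and the part of these shifts in the comparison was not tested. Without the genes of both chromosomes 26 genes were called. None of the 5 shared genes lies on those chromosomes. A test of whether the Zic2 effect differed between the backgrounds called 2 genes (0.0128%), Loxl2 and Pkd2l1. It called 0 with the line as a replicate block, and 0 without Zic2_WT or without Ehmt1_WT.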

How the data were processed

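The deposited table holds unnormalised counts from the authors for 24116 Entrez gene IDs. Per the labels' protocols, the 16 polyA libraries were made with a TruSeq mRNA kit. GRCm38 (mm10) is the build named, per the submitters' processing notes, and edgeR is a listed tool, with no role stated for it. The aligner, counter, annotation and strand setting were not given in the sources used here. Symbols and coordinates are those of RefSeq for GRCm38.p6, where 24061 IDs matched and 55 did not. No table column was left without a sample (0 columns).

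All 16 polyA libraries, 8 groups of 2, were fitted together, so that all groups share the estimate of the spread. Their total counts lay between 19013882 and 28777604. filterByExpr (minimum count 10, minimum total 15) left 15667 genes. The fit was edgeR 4.0.16 with TMM scaling and the robust quasi-likelihood test, and a gene was called at a Benjamini-Hochberg adjusted p under 0.05 over all genes tested. For the effects against each WT line, the WT libraries in 2i were separate columns of the design. A standard error is the log2 fold change over the square root of the F statistic. CPM use TMM library sizes and take no account of gene length, so they are compared between libraries and not between genes. Alternatives were DESeq2 1.42.0, its size factors in edgeR, no filter, the 8 libraries in 2i alone, the 4 compared libraries alone, each library left out in turn, and limma 3.58.1 voom with the line as a random block, under R 4.3.3. The fits were tested on simulated counts. By a chi-square test of their counts, no 2i libraries of a group agreed within sampling noise. Figures were drawn with matplotlib 3.10.9.

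The genes named by rule were up to 15 per direction with the largest fold change among the called genes, with a mean of 5 CPM or more in 1 group and libraries that do not overlap, passing over predicted and multi-copy genes. Members of 30 gene lists (418 genes, 3 of them not found) were also allowed as values, and genes outside these rules are named as such. The members and the lists were chosen with earlier results of these data known. Some genes of these lists are not reported here.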

Additional observations from a re-analysis of the deposited data

Results flagged for a closer look

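Differences between the backgrounds in the effect of Zic2 loss drew attention to 2 genes, Loxl2 and Pkd2l1. In both, the double KO minus Ehmt1 KO difference in 2i departed from the Zic2 KO minus WT difference by edgeR's quasi-likelihood test. Loxl2, an extracellular enzyme that cross-links collagen, had 3.21 and 4.48 CPM in double KO lines 1 and 2, against 0.688 and 0.950 CPM in Ehmt1 KO lines 1 and 2. In the other pair it had 0.732 and 1.12 CPM in Zic2 KO lines 1 and 2, against 2.15 and 2.19 CPM in Zic2_WT and Ehmt1_WT. It was thus higher without Zic2 in cells that lack Ehmt1 and lower in cells that have it, and the log2 fold changes, 2.23 ± 0.27 and -1.22 ± 0.28, differed by 3.45 ± 0.39 (adjusted p = 0.0107). The second of them did not pass by itself (adjusted p = 0.0823).

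Pkd2l1, a cation channel of the polycystin family, had 86.0 and 89.2 CPM in double KO lines 1 and 2, against 101 and 106 CPM in the Ehmt1 KO lines. It had 1.83 and 1.86 CPM in Zic2 KO lines 1 and 2, against 0.601 and 0.666 CPM in Zic2_WT and Ehmt1_WT. Its level differed far more with Ehmt1 than with Zic2, and the effects of Zic2 loss, -0.25 ± 0.10 and 1.53 ± 0.19, differed by -1.78 ± 0.21 (adjusted p = 0.0111). Both genes lie outside the naming rule and were picked after their values were seen. The calls depend on the fit. With the line as a replicate block this test called 0 genes, and it called 0 with the 8 libraries in 2i alone, 0 without either WT line and 0 without Zic2 KO line 1.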

How the results depend on the processing

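In Zic2 KO against WT cells in 2i, the 43 called genes and 87 other genes had values under the alternatives. None of the 43 changed direction. Among the other genes some did, such as Cdon, with a log2 fold change of 0.19 with all 16 libraries and -0.06 without Ehmt1_WT. Other named genes, and single genes at 32 h or on the Ehmt1 KO background, were not rerun. The count of 43 genes in Zic2 KO against WT cells in 2i was 281 by DESeq2, 94 without the filter on low counts, 207 with the 4 compared libraries alone and 0 with the 8 libraries in 2i alone. Of the 43, 43, 41, 37 and 0 were kept. DESeq2 size factors gave 43, of which 42 were shared. Leaving out a library gave 0 to 214. With the line as a replicate block 31 genes were called, 26 of them shared (consensus correlation within a line 0.372). The block ties the 2i and 32 h libraries of a line, and no label ties a KO line to a WT line. Against Zic2_WT the count of 0 was 91 by DESeq2, and 0 in all other alternatives run, the block included. Against Ehmt1_WT the count of 134 was 836 by DESeq2, 0 with the 8 libraries in 2i, 172 with the block, and 8 to 11 without a KO line. Against both WT lines it was 60 by DESeq2 and 0 otherwise. At 32 h the 12 genes were 175 by DESeq2, 34 with the block, 48 without the filter and 2 without any one library of the contrast. The interaction with stage gave 24 by DESeq2, 3 with the block and 0 to 8 without a library, against 0. In double KO against Ehmt1 KO the 15 genes were 189 by DESeq2, 7 with DESeq2 size factors, 8 with the block, 36 without the filter, 0 with the 8 libraries in 2i, 26 without chromosomes 11 and 16 (an alternative chosen after seeing the data) and 0 to 287 without a library. The difference between backgrounds, called for 2 genes, gave 15 by DESeq2, 0 with the block, 0 with the 8 libraries in 2i and 0 to 5 without a library. Ehmt1 KO against WT gave 4214 genes and 2590 to 3657 without a library. The cause of these shifts was not tested. What depth limits was not tested.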
